A study of Mus musculus with 18 samples.

Results

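The genes described here are 10 of the MHC class I pathway, the route by which a cell shows fragments of its own cytoplasmic proteins to CD8+ T cells. They were followed by ATAC-seq, in which a transposase inserts adapters into open DNA so that reads over a region measure its accessibility, through all 6 conditions of the study. Members were the peaks of the union table that overlapped the gene body of Nlrc5, B2m, H2-K1, H2-D1, Tap1, Tap2, Tapbp, Psmb8, Psmb9 or Psmb10 or the 5000 bases on either side of it, with genes taken from the GENCODE M1 annotation of build mm9. This rule used position only and gave 67 of the 194284 peaks, 38 of them among the 36670 promoter peaks and 29 among the 157614 distal peaks as the authors classed them. All 67 passed the filter on low counts. Tap1, Psmb9, Psmb8 and Tap2 are neighbours on chromosome 17, and 10 peaks belonged to more than 1 gene and were counted once.

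NLRC5 is the transactivator of the class I genes, the counterpart of CIITA for class II. Heavy chains, of which H2-K1 and H2-D1 are the classical ones in this strain, pair with the light chain beta-2-microglobulin (B2m). The immunoproteasome subunits Psmb8, Psmb9 and Psmb10 replace their constitutive counterparts and alter how proteins are cut into peptides, Tap1 and Tap2 form the pump that carries peptides into the endoplasmic reticulum, and tapasin (Tapbp) holds empty class I molecules at that pump. In macrophages the pathway is known to be raised by interferons and by bacterial products, through IRF, STAT and NF-kappaB sites in its promoters.

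Bone marrow-derived macrophages (BMDMs) came from 3 male Il10-/- mice, 12 weeks old and on the C57BL/6J background, so every condition, controls included, lacks endogenous IL-10. The 6 conditions had 3 libraries each, 1 per mouse, and marrow cells were cultured for 6 days first. Cells were unstimulated, were given 500 nM of the BET bromodomain inhibitor (+)-JQ1, or were given 10 ng/mL of IL-10, and after 12 h of this each received either PBS or 50 ng/mL LPS, a bacterial cell wall component, for another 4 h. The paper names a vehicle control for the 12 h before LPS and describes its unstimulated control as untreated. The comparisons with unstimulated cells may therefore lack a baseline matched for vehicle, whose effect was not tested. The macrophages were grown in culture from marrow with L929-conditioned medium, and accessibility in a tissue was not measured. Between 12020526 and 25908198 reads fell in peaks per library. All 8 macrophage genes examined, Csf1r and Mertk among them, had a peak overlapping the window from 1000 bases before to 100 bases after their start. Their mean levels were 7.08 to 39.3 CPM. At Csf1r, Cd68 and Spi1 (Sfpi1 in this annotation) that peak did not reach the start itself and lay 858, 744 and 983 bases from it. No peak lay over the start of the T cell genes Cd3e, Cd4 and Cd8a or of Ly6g, while 9 of 14 genes of other cell types had one, and their summed level lay between 75.3 and 95.0 CPM in every library. The summed level of the macrophage genes was 138 to 173 CPM in unstimulated libraries, 161 to 167 after LPS and 174 to 198 in the 4 treated groups, and its part in the results was not tested. Unstimulated replicates 1 and 2 stood apart in their TMM factors, which scale each library, at 1.24 and 1.15, while unstimulated replicate 3 had 1.04 and the other 15 libraries 0.896 to 1.05.

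Sequences are shown for 4 start sites and 2 distal peaks, since the results below turn on them. Each is read 5′ to 3′ from the mm9 genome. The 4 upstream stretches end 1 base before the annotated start and follow the gene's strand, and the 2 distal stretches are the central 300 bases of their peaks on the plus strand. Capitals mark matches, on either strand, to the IRF element GAAANNGAA, the STAT element TTCNNNGAA, the AP-1 element TGANTCA or the kappaB consensus.
B2m upstream, chr2:121973172-121973421: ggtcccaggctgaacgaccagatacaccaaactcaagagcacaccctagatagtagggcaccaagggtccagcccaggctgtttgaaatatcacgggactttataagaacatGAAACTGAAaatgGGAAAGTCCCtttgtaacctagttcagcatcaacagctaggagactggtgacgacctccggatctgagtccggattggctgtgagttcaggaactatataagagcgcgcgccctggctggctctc
H2-K1 upstream, chr17:34137279-34137528, minus strand: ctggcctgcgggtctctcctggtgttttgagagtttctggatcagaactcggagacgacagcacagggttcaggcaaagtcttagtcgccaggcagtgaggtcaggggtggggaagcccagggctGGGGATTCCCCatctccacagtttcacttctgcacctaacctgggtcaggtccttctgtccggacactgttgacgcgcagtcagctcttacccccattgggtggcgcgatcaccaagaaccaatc
Nlrc5 upstream, chr8:96996413-96996662: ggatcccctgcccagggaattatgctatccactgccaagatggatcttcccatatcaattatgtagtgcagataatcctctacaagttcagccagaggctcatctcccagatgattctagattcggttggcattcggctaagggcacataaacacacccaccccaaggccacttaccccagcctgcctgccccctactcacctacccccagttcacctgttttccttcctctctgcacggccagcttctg
Tap2 upstream, chr17:34340222-34340471: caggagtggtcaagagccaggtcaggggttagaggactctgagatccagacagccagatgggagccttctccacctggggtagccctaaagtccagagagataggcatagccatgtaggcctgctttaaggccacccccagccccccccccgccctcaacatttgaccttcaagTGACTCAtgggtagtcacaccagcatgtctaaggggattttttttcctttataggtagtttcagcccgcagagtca
Distal peak downstream of B2m, chr2:121981442-121981741: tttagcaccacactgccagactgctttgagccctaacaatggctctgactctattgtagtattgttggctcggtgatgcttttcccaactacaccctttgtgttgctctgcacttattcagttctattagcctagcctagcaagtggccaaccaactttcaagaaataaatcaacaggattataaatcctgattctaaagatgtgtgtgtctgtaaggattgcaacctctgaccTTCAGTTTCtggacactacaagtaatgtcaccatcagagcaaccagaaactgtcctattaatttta
Second distal peak downstream of B2m, chr2:121983202-121983501: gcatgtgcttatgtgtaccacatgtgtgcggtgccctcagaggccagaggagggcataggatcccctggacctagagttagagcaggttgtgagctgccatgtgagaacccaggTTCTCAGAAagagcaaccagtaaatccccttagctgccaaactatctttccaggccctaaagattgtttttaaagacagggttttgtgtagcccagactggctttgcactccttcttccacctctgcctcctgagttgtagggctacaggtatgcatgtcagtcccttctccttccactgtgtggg

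Upstream of B2m an IRF match began 138 bases before the start, and a kappaB match, on the opposite strand, 125 bases before it. H2-K1 held 2 overlapping kappaB matches, which began 125 and 124 bases before the start. Tap2 held an AP-1 match 76 bases before its start, and the stretch upstream of Nlrc5 held none of the 4 elements. Of the 2 distal stretches, the first held an IRF match and the second a STAT match. Among 22237 gene starts with 250 upstream bases, 7.62% held the IRF element, 7.75% the kappaB consensus, 6.83% the STAT element and 5.88% the AP-1 element. Of the 10 member starts, 1 held the IRF element, 2 the kappaB consensus, 1 the STAT element and 2 the AP-1 element. In the central 300 bases of all member peaks, the IRF element was found in 7 of 29 distal peaks (24.1%, against 10.5% of all distal peaks) and in 2 of 38 promoter peaks (5.26%, against 8.57%). The kappaB consensus was found in 3 of 38 promoter members (7.89%, against 8.02% of all promoter peaks) and 0 of 29 distal members (against 5.51% of all distal peaks). For the AP-1 element the counts were 4 (10.5%, against 7.98%) and 2 (6.9%, against 13%). For the STAT element they were 2 (5.26%, against 7.46%) and 2 (6.9%, against 9.03%). These matches are letters in a window, and binding was not measured.

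LPS stimulation opened chromatin at all 10 genes. A peak counted as a differentially accessible region when the Benjamini-Hochberg FDR, taken over all 194230 tested peaks, was below 0.05 and the absolute log2 fold-change exceeded 0.5 (edgeR, quasi-likelihood). By this rule 58 of the 67 peaks were more accessible after LPS and 0 were less accessible. The background was 11.7% of all peaks, 14.3% of promoter peaks and 11.1% of distal peaks. Among members the calls covered 35 of 38 promoter peaks and 23 of 29 distal peaks. The median log2 fold-change was 1.15 over the members against -0.03 over all tested peaks. Every gene contributed at least 2 of these calls, from 2 of 3 peaks at Psmb10 to 19 of 19 at Nlrc5 and 10 of 10 at Tapbp. The LPS libraries serve in this and the next 2 comparisons, which therefore are not independent. With unstimulated replicate 3, whose TMM factor was nearest to the others, as the only unstimulated library, an alternative chosen after seeing the data, 51 peaks were called higher and 6.92% of all peaks.

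Reads in the 67 peaks made up 0.0739% to 0.0764% of all reads in peaks in unstimulated cells and 0.132% to 0.135% after LPS. With (+)-JQ1 before LPS the share was 0.109% to 0.111%, and with IL-10 before LPS it was 0.0928% to 0.103%. Without LPS, (+)-JQ1 gave 0.0785% to 0.0821% and IL-10 gave 0.0751% to 0.0773%. The LPS libraries thus held the highest shares, the 2 treated LPS groups lay between them and the groups without LPS, and no library of these 3 LPS groups overlapped another group.

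**Figure D1:**
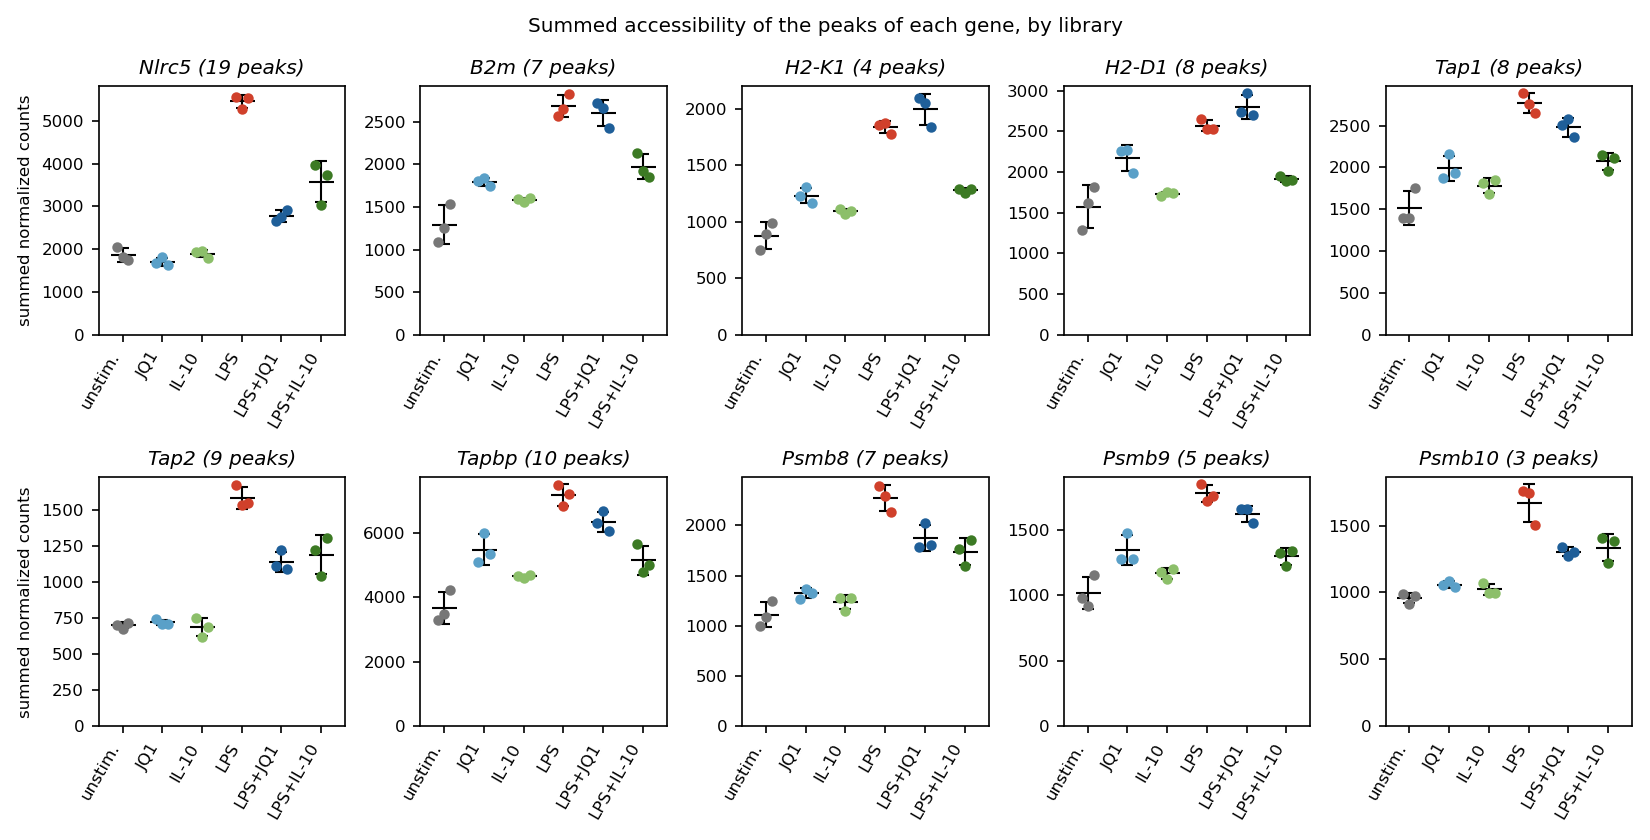
Summed normalized counts (TMM-scaled to a common library size) of all peaks of each gene on the vertical axis, for the 6 conditions on the horizontal axis; points are the 3 libraries and bars the mean and SD. The Nlrc5 panel has the widest step, from a mean of 1865 in unstimulated cells to 5458 after LPS, and LPS + (+)-JQ1 lies below LPS there but not at H2-K1 or H2-D1.

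Nlrc5 was the member that LPS changed over the longest stretch. Its 19 peaks covered 61432 bases from upstream of the start through the annotated gene (chr8:96996663-97051172) to its downstream flank, and each rose by a log2 fold-change between 1.04 and 2.43. GENCODE M1 types Nlrc5 as non-coding, so that its coding exons could not be told from its other exons here. Summed over these peaks the normalized counts were 2041, 1809 and 1745 in the unstimulated libraries and 5553, 5279 and 5543 after LPS, a 2.93-fold higher mean. The start-site peak (chr8:96993596-96997861) held 114, 91.9 and 111 normalized counts in unstimulated cells and 272, 314 and 313 after LPS. These groups did not overlap, and the log2 fold-change was 1.50 ± 0.17 (SE, adjusted p = 1.17e-12, edgeR). A peak over exons near the 3′ end (chr8:97037506-97044824) rose from 184, 180 and 134 to 608, 538 and 599 normalized counts, a log2 fold-change of 1.82 ± 0.15 (SE, adjusted p = 1.01e-19).

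At the light chain gene B2m, 5 of 7 peaks rose. The start-site peak (chr2:121973232-121975205), the one that the upstream sequence with the IRF and kappaB matches adjoins, held 518, 637 and 829 normalized counts without and 1154, 1069 and 1219 with LPS, a log2 fold-change of 0.79 ± 0.14 (SE, adjusted p = 1.63e-06, edgeR). With only unstimulated replicate 3 it was 0.47, under the threshold of 0.5, and with loess offsets it was 0.35. The steeper changes were at the 2 distal peaks downstream of the gene whose central sequences are shown. The first (chr2:121981019-121982164) rose from 164, 144 and 169 to 531, 524 and 512 normalized counts, and the second (chr2:121982909-121983793) from 54.1, 73.3 and 79.3 to 273, 322 and 319. Their log2 fold-changes were 1.72 ± 0.14 and 2.13 ± 0.17 (SE). All 7 B2m peaks also overlapped the annotated gene Patl2, and accessibility there cannot be assigned to 1 of the genes.

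Of the 12 peaks of the heavy chain genes, 8 rose, 3 of 4 at H2-K1 and 5 of 8 at H2-D1. The H2-K1 start-site peak (chr17:34136501-34137371) held 395, 454 and 507 normalized counts in unstimulated cells and 963, 832 and 843 after LPS, without overlap, a log2 fold-change of 0.96 ± 0.13 (SE, adjusted p = 5.51e-09, edgeR). At H2-D1 the peak chosen by the start-site rule (chr17:35398303-35399166) was weak, with 23.7 to 31.4 normalized counts in unstimulated cells and 26.8 to 47.1 after LPS, and was not called. The strong H2-D1 peak over exons just after its start (chr17:35399874-35401265) held 438, 582 and 686 and then 1124, 963 and 1053 normalized counts, a log2 fold-change of 0.88 ± 0.14 (SE, adjusted p = 1.17e-07), which was 0.45 with loess offsets. Both genes are close paralogs of each other and of the other H2 genes, so that reads that fit more than 1 of them were left out by the unique alignment, and their levels are uncertain to that extent.

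Transport and loading genes rose at 23 of their 25 peaks. Tap1 and Psmb9 are transcribed in opposite directions from a shared start region (chr17:34323818-34324793), whose peak had 558, 570 and 810 normalized counts in unstimulated cells and 1099, 943 and 964 after LPS. Its log2 fold-change of 0.63 ± 0.14 (SE, adjusted p = 0.000151, edgeR) fell under 0.5 with total counts (0.41), loess offsets (0.20), promoter peaks scaled on their own (0.47), without replicate 1 (0.48), and with only unstimulated replicate 3 (0.31). The Tap2 start-site peak (chr17:34339812-34340584) was weaker and changed more, from 42.8, 52.6 and 55.6 to 221, 173 and 160 normalized counts, a log2 fold-change of 1.87 ± 0.20 (SE, adjusted p = 9.55e-14). At Tapbp the start-site peak (chr17:34052527-34053723), shared with the start of Zbtb22, rose by a log2 fold-change of 0.84 ± 0.14 (0.39 with loess offsets) and an intronic peak (chr17:34054117-34055852) by 1.86 ± 0.16 (SE). Peaks in the Tapbp window also lay over its neighbours Daxx, Zbtb22 and Rgl2.

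Of the 14 peaks at the immunoproteasome genes, 12 rose. The Psmb8 start-site peak (chr17:34334151-34335360) held 394, 460 and 573 normalized counts before and 960, 911 and 856 after LPS, a log2 fold-change of 0.93 ± 0.13 (SE, adjusted p = 1.62e-08, edgeR). The Psmb10 start-site peak (chr8:108460973-108464654) rose from 431, 471 and 526 to 931, 870 and 749, by a log2 fold-change of 0.84 ± 0.13 (SE), or 0.44 with loess offsets, and also lies over Lcat. A distal peak on the far side of Psmb9 (chr17:34315495-34318141) rose from 94.3, 90.8 and 104 to 223, 221 and 235. Start-site peaks of the constitutive subunits that these replace, Psmb5, Psmb6 and Psmb7, had log2 fold-changes of 0.28, 0.49 and 0.39, and 0 of the 3 were called.

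Treatment with (+)-JQ1 before LPS lowered accessibility at some of these genes and not at others. Compared with LPS alone, 28 of the 67 peaks were less accessible and 0 more accessible. The background of lower calls was 3.48% of all peaks, 3.21% of promoter peaks and 3.54% of distal peaks. The median log2 fold-change of the members was -0.30, against -0.003 over all tested peaks. Lower calls included 16 of 19 peaks at Nlrc5, 0 of 12 at the heavy chain genes and 12 of the 36 at the remaining genes. At the heavy chains 0 peaks were lower and 1 higher at an unadjusted p under 0.05 in edgeR, and DESeq2 also called 0 of the 12. The 3 Nlrc5 peaks that were not called had log2 fold-changes of -1.28, -0.47 and -0.29, the first of them the weak peak farthest upstream.

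Nlrc5 lost most of its gain. Its summed normalized counts were 2650, 2744 and 2919 with (+)-JQ1 before LPS, all below the 5279 to 5553 of LPS alone and above the 1745 to 2041 of unstimulated cells. At the start-site peak the values were 99.6, 139 and 169, a log2 fold-change from LPS alone of -1.11 ± 0.16 (SE, adjusted p = 1.43e-07, edgeR). At the peak near the 3′ end they were 224, 224 and 251, a log2 fold-change of -1.32 ± 0.14 (SE, adjusted p = 2.37e-12). Along the gene the change was between -0.66 and -1.59 at every peak from upstream of the start to the annotated end, and it was smaller at 2 of the 3 peaks of the downstream flank.

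**Figure D2:**
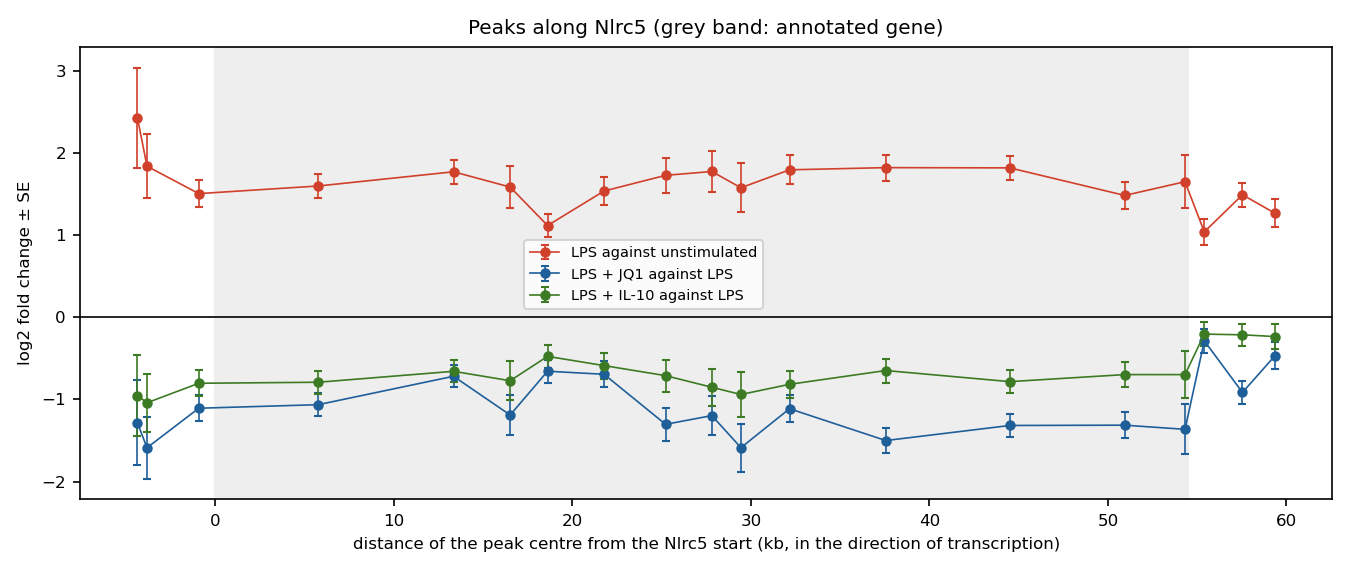
Log2 fold-change ± SE (vertical axis) of the 19 Nlrc5 peaks against the distance of the peak centre from the annotated start in kb (horizontal axis), for LPS against unstimulated, LPS + (+)-JQ1 against LPS and LPS + IL-10 against LPS. The LPS line stays between 1.04 and 2.43 along the whole gene, while the (+)-JQ1 line lies below 0 throughout and at or below the IL-10 line.

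At the heavy chains and at 5 start sites no fall from LPS alone was called with (+)-JQ1. The H2-K1 start-site peak had 900, 980 and 881 normalized counts, beside 963, 832 and 843 with LPS alone (log2 fold-change 0.06 ± 0.13, SE, adjusted p = 0.865, edgeR), and the strong H2-D1 peak had 1096, 1234 and 1063 (0.11 ± 0.13). At B2m the start-site peak had 1339, 1364 and 1192 (0.18 ± 0.13, adjusted p = 0.54). The shared Tap1 and Psmb9 peak had 1069, 1025 and 930 (0.01 ± 0.13), and the Tapbp start-site peak 1071, 1258 and 1050 (-0.004 ± 0.14). The Psmb8 and Psmb10 start sites had lower means than with LPS alone, 795 against 909 and 753 against 850.1, with log2 fold-changes of -0.19 (adjusted p = 0.482) and -0.18 (adjusted p = 0.535). At each of these peaks the libraries overlapped those of LPS alone, and with SEs of this size small changes could not be told from 0. Means with (+)-JQ1 alone and with (+)-JQ1 before LPS were 743 and 920 at H2-K1, 965 and 1131 at H2-D1 and 1025 and 1298 at B2m. They were 1010 and 1008 at Tap1 with Psmb9, and 1258 and 1127 at Tapbp. At Psmb8 they were 641 and 795, and at Psmb10 651 and 753. LPS within (+)-JQ1-treated cells was not tested, so the absence of a called fall does not show that the LPS rise was kept.

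Peaks away from these start sites did fall. The 2 distal peaks downstream of B2m had 351, 267 and 262 normalized counts and 198, 222 and 221, below every LPS library, with log2 fold-changes of -0.85 ± 0.14 (SE, adjusted p = 2.67e-06) and -0.50 ± 0.15 (adjusted p = 0.0246, edgeR). The second lay at the threshold and was not called by DESeq2, with promoter and distal peaks tested separately, or without replicate 2 or 3. At Tap2 the start-site peak fell to 111, 123 and 98.3 normalized counts (-0.75 ± 0.18, adjusted p = 0.00268, but 0.0707 without replicate 1) and a distal peak beyond its 3′ end (chr17:34353319-34356187) from 211, 202 and 187 to 111, 92.3 and 91.0 (-1.04 ± 0.18). The intronic Tapbp peak fell to 247, 259 and 214 from 365, 460 and 444 (-0.82 ± 0.15), and a peak over the 3′ part of Psmb10 and its neighbour Ctrl (chr8:108453189-108460579) to 438, 407 and 427 from 647, 717 and 621 (-0.64 ± 0.13, adjusted p = 0.132 without replicate 2). Of the 8 peaks over a member's start 2 fell, at Nlrc5 and Tap2, and of the other 59 peaks 26 fell, with medians of -0.09 and -0.32. Nlrc5 carried much of this split, since outside Nlrc5 1 of 7 start-site peaks and 11 of 41 others fell, with medians of -0.004 and -0.15.

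IL-10 before LPS also lowered accessibility at members, with the same 3 LPS libraries as the control. Compared with LPS alone, 27 of the 67 peaks were less accessible and 0 more accessible, against 4.52% of all peaks, 3.95% of promoter peaks and 4.65% of distal peaks called lower. The median log2 fold-change was -0.50 over the members and -0.01 over all tested peaks. The count depended most on replicate 2, without which 11 peaks were called, 4 of them at Nlrc5 and 2 at the heavy chains. The share of all peaks called lower was then 2.31%, and the member median -0.45. Without replicate 1 or 3 the count was 27, against 3.27% and 2.69% of all peaks. With all libraries, lower calls fell on 13 of 19 peaks at Nlrc5, 5 of 12 at the heavy chains and 9 of the remaining 36. They comprised 5 of 10 at Tapbp and 0 at Tap1, Psmb8 and Psmb10.

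At Nlrc5 the summed normalized counts with IL-10 before LPS were 3970, 3035 and 3723, between LPS alone and unstimulated cells. The start-site peak had 176, 137 and 198, a log2 fold-change of -0.80 ± 0.16 (SE, adjusted p = 8.75e-05, edgeR), and was not called without replicate 2 (-0.64, adjusted p = 0.0519). The H2-K1 start-site peak fell to 574, 563 and 517, below every LPS library and close to the 395 to 507 of unstimulated cells (-0.68 ± 0.13, adjusted p = 8.31e-05). The strong H2-D1 peak fell to 713, 707 and 701 (-0.57 ± 0.13, adjusted p = 0.00158), a call that was lost with loess offsets (-0.37), with promoter peaks scaled on their own (-0.49) and without replicate 2. The start-site peaks of B2m (908, 826 and 830), of Tap1 and Psmb9 (788, 743 and 689) and of Psmb8 (698, 648 and 669) also lay below every LPS library, with log2 fold-changes of -0.42, -0.44 and -0.44 that passed the FDR but not the threshold on size. The 2 distal peaks downstream of B2m fell by 0.73 and 0.70 on the log2 scale.

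**Figure D3:**
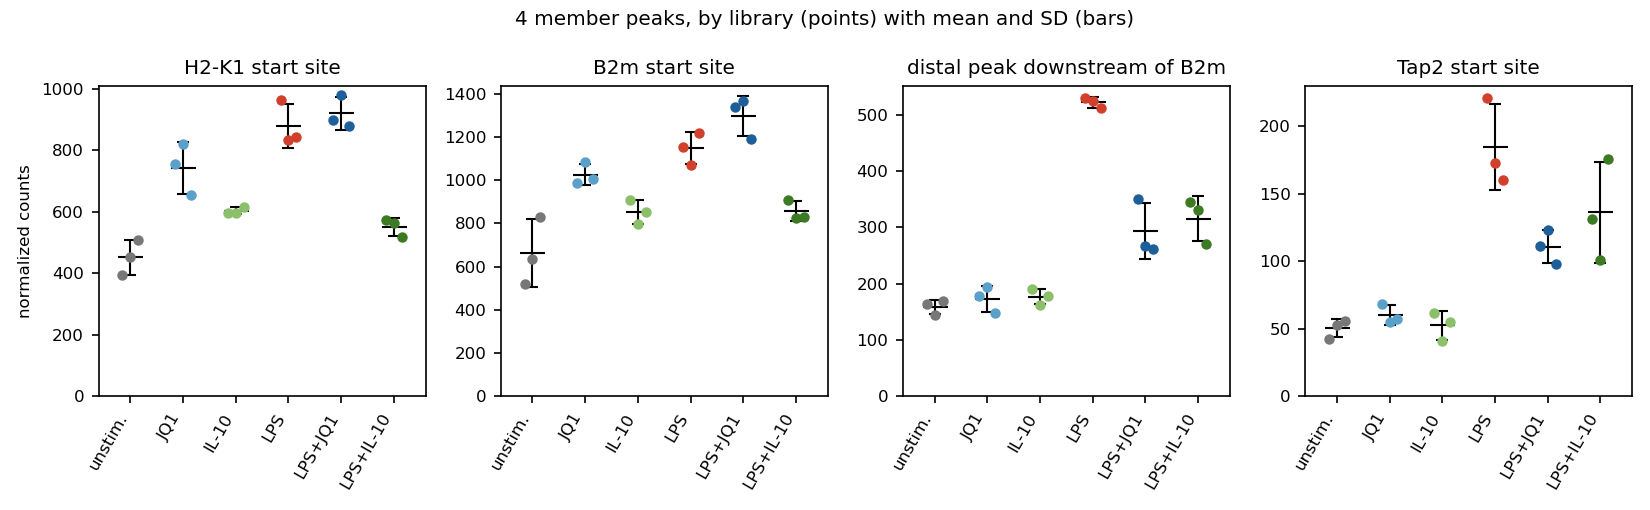
Normalized counts (vertical axis, from 0) of 4 member peaks in the 6 conditions (horizontal axis), with the 3 libraries as points and the mean and SD as bars. With (+)-JQ1 before LPS the libraries of the H2-K1 and B2m start sites overlap those of LPS alone while the distal peak downstream of B2m and the Tap2 start site lie below it, and with IL-10 before LPS the H2-K1 values fall to between 517 and 574.

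The 2 treatments were also compared directly, as LPS + (+)-JQ1 against LPS + IL-10, since a call in one comparison and not in the other does not show a difference. Accessibility was higher with (+)-JQ1 at 10 peaks (14.9%), against 3.43% of all peaks. It was lower at 4 (5.97%), a share near the 4.67% of all peaks. The 10 higher peaks comprised 7 of the 12 heavy chain peaks, 1 at B2m and 2 at Tapbp, and the 4 lower peaks were all at Nlrc5. The H2-K1 start-site peak was higher with (+)-JQ1 by 0.74 ± 0.13 (SE, adjusted p = 1.68e-05, edgeR), with 900, 980 and 881 against 574, 563 and 517 normalized counts, and the B2m start-site peak by 0.60 ± 0.13 (adjusted p = 0.000812). The Nlrc5 peak near the 3′ end was lower with (+)-JQ1 by a log2 fold-change of -0.53 ± 0.14 (adjusted p = 0.00689), with 224, 224 and 251 against 373, 285 and 354. At the immunoproteasome genes 0 of 14 peaks were called between the treatments by edgeR and 0 by DESeq2, with 1 higher and 2 lower at an unadjusted p under 0.05 and 2 called with promoter and distal peaks scaled separately. Without replicate 2, 3 peaks, all at the heavy chains, were higher and 3 at Nlrc5 lower, against 1.23% and 2.33% of all peaks. Of the calls named here that of H2-K1 was then kept while B2m (adjusted p = 0.142, edgeR) and Nlrc5 (0.0698) were not. Without replicate 1 the Nlrc5 difference was -0.44, and the B2m difference was 0.29 with loess offsets and 0.48 with separate scaling, all under the threshold on size. The split was 8 higher and 5 lower when libraries were scaled by total counts, against 2.22% and 5.91% of all peaks. It was 5 and 4 with loess offsets (3.1% and 4.49%), and 8 and 6 with promoter and distal peaks scaled separately (3.01% and 4.6%).

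**Figure D4:**
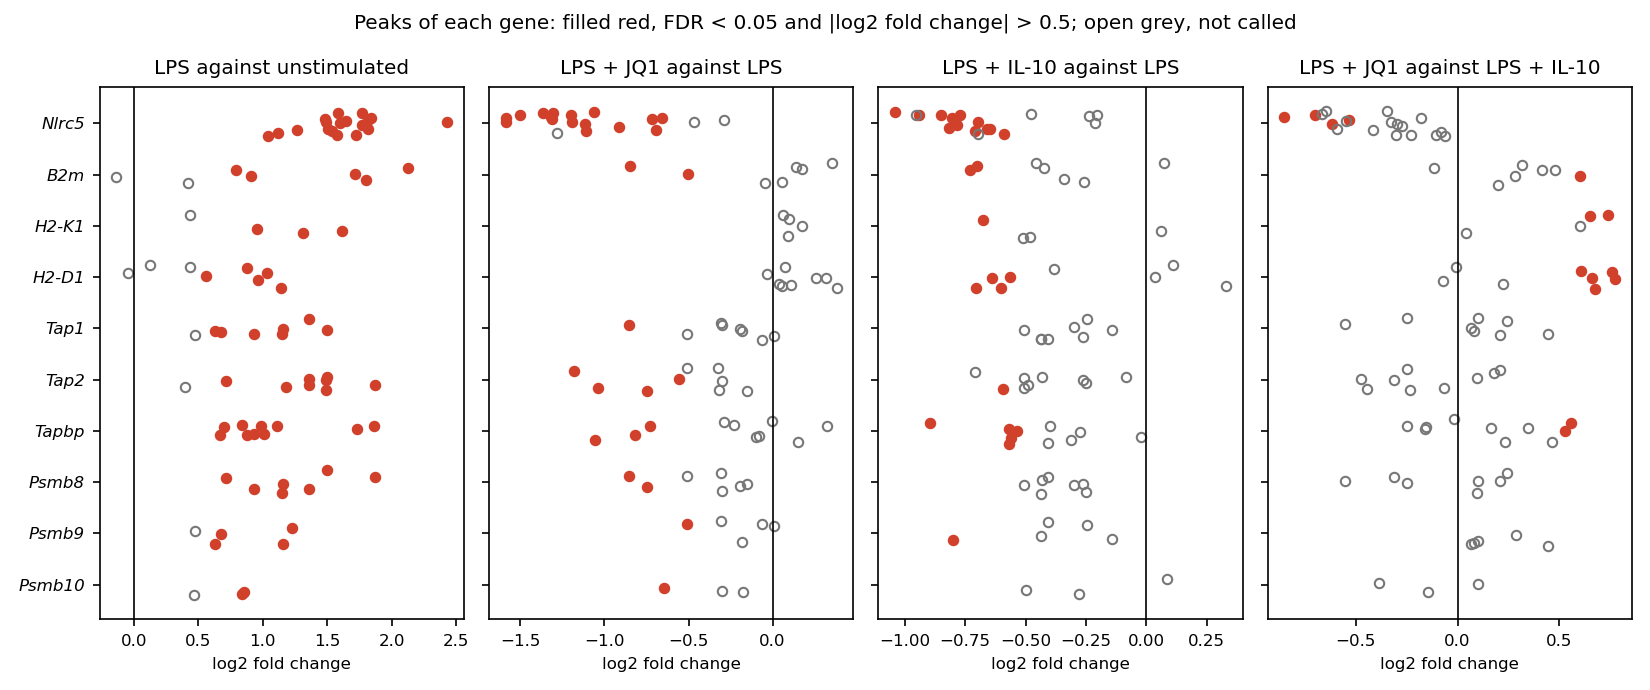
Log2 fold-change (horizontal axis, a scale of its own in each panel) of every peak of the 10 genes (rows) in 4 comparisons (panels); filled red points passed both the FDR of 0.05 and the size of 0.5, and open grey points did not, and a peak shared by neighbouring genes is drawn in each row. Red points in the LPS + (+)-JQ1 against LPS panel number 16 at Nlrc5 and 0 at H2-K1 and H2-D1, and in the rightmost panel those of Nlrc5 lie left of 0 and those of H2-K1 and H2-D1 right of it.

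Without LPS the direction of the members' changes depended on the scaling. (+)-JQ1 alone gave 11 peaks higher, against 7.85% of all peaks, and 3 lower, against 3.15%. Higher calls were common among promoters in general, at 22.9% of all promoter peaks and 9 of the 38 promoter members. They included the start-site peaks of H2-K1, B2m, Tapbp and of Tap1 with Psmb9 and the strong H2-D1 peak, while the 3 lower calls were at Nlrc5, its start-site peak among them (72.8, 63.2 and 56.0 normalized counts against 114, 91.9 and 111). Scaling by total counts made it 2 higher and 18 lower, against 1.97% and 14.1% of all peaks. With loess offsets it was 0 and 9, against 1.41% and 2.13%. Separate scaling of promoter and distal peaks gave 4 and 13, against 5.77% and 4.21%. The median log2 fold-change over all tested peaks was -0.37 with total counts and -0.085 with TMM. Without replicate 1 the split was 9 and 1, against 5.88% and 1.27% of all peaks. Without replicate 2 it was 2 and 1 (2.19% and 0.545%), and without replicate 3 it was 15 and 5 (9.73% and 2.96%). IL-10 alone gave 2 higher, against 5.16% of all peaks, and 3 lower, against 3.50%. Scaling by total counts made it 0 and 3, against 1.27% and 8.58% of all peaks. Loess offsets gave 0 and 4 (1.52% and 1.47%), and separate scaling 3 and 3 (4.7% and 3.27%). The split was 1 and 1 without replicate 1, against 2.64% and 0.621% of all peaks. It was 0 and 1 without replicate 2 (0.793% and 0.404%) and 9 and 2 without replicate 3 (8.55% and 3.17%). With only unstimulated replicate 3 the median log2 fold-change was 0.04 over the members and 0.005 over all tested peaks.

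An interaction asked whether the LPS change itself differed with and without a treatment. For (+)-JQ1 it was called negative at 20 of the 67 peaks, against 3.18% of all peaks and 11.2% of promoter peaks, and for IL-10 at 20, against 5.90% and 17.0%. Positive interactions were called at 0 peaks in both. These counts rest on the unstimulated libraries. With loess offsets they were 5 and 5, against 0.558% and 2.01% of all peaks. Without replicate 2 they were 1 and 2 (0.0448% and 0.567% of all peaks), and without replicate 1 they were 6 and 14 (0.424% and 2.9%). With unstimulated replicate 3 alone the median interaction over the members was -0.38 for (+)-JQ1 and -0.47 for IL-10, beside -0.53 and -0.52 with all libraries.

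Other genes of the pathway were followed at their start sites from a list of 30 chosen from textbook knowledge. For 29 of them a peak overlapped the window from 1000 bases before to 100 bases after the start. At Rfxap, H2-T23, Nfya and H2-M3 that peak did not cover the start itself and lay 865, 100, 72 and 37 bases from it. For Nfyc the nearest peak, a distal one, was taken. After LPS 14 of the 30 peaks were called higher and 0 lower, with a median log2 fold-change of 0.49, beside the 14.3% of all promoter peaks given above. The 14 included 5 of 8 other heavy chain genes (H2-Q7 by 1.23 and H2-Q6 by 1.09), 2 of 3 genes of the PA28 activator of the proteasome (Psme1 by 0.74 and Psme2 by 0.70) and 6 of 11 genes of transcription factors that act at class I promoters (Irf2 by 0.98 and Irf1 by 0.95). Of the 5 loading and trimming genes Erap1, which trims peptides in the endoplasmic reticulum, was called (0.75), while the chaperone genes Calr, Canx and Pdia3 had 0.47, 0.42 and 0.49. Higher calls against the same unstimulated libraries were also made without LPS. (+)-JQ1 alone gave 21 of the 30 higher and 0 lower, with a median of 0.68, beside 22.9% of all promoter peaks. IL-10 alone gave 9 higher and 0 lower, with a median of 0.39, beside 8.72%. Other scalings were not tried on this list, so how far its LPS calls rest on the unstimulated libraries was not tested. Compared with LPS alone, (+)-JQ1 before LPS lowered 1 of the 30, H2-Q7 (-0.71 ± 0.14, SE, adjusted p = 9.82e-05, edgeR), a share near the 3.21% of all promoter peaks. IL-10 before LPS lowered 5, beside 3.95% of all promoter peaks, among them H2-Q6 (-0.76), Irf1 (-0.64), Psme2 (-0.52) and Nfkb1 (-0.52). For Irf1 the corresponding value with (+)-JQ1 was -0.21 ± 0.13 (SE).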

How the data were processed

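ATAC-seq libraries of 18 BMDM samples in 6 groups were analysed from the deposited tables. The authors ran PEPATAC, aligned read pairs with unique hits to mm9 with Bowtie2, called peaks per library with MACS2, took their union and classed each peak as promoter (from 1000 bases before to 100 after a start) or distal with ChIPseeker. The deposited values are raw counts per peak and library, not normalized. The tool that counted reads and any shift of read ends for the transposase are not given in the sources used here. The union table has 6 further columns of libraries that match no sample label, and they were not used. Promoter and distal tables hold the same counts as the union table.

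Peaks were kept by filterByExpr, scaled by TMM and fitted in edgeR 4.0.16 (R 4.3.3; limma 3.58.1) by quasi-likelihood with all 6 groups and no block. The FDR (Benjamini-Hochberg) was computed over the 194230 peaks tested, separately for each of 8 comparisons, and SE is the log2 fold-change divided by the root of its F statistic. Normalized counts are counts scaled by TMM to a common library size of 18786956. DESeq2 1.42.0 was a further test. The fit was tested on simulated data. Alternatives were DESeq2's size factors, total counts and loess offsets as scaling, promoter and distal tables separately, no filter, at least 10 counts in every library, the replicate block, a covariate for lane, a fit of only the groups compared, glmTreat, a window of 2000 bases and each replicate number left out. Keeping only unstimulated replicate 3 was added after seeing the data.

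The members, the gene lists and the rules for named peaks were chosen with earlier results of these data known. Named peaks were, for each gene, the start-site peak and at most 2 further peaks with at least 50 mean normalized counts and a call in 1 of the 3 main comparisons, in order of p. Other peaks that are named were chosen after their values were seen. Some members of the wider gene lists are counted but not reported by name here.

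Replicate numbers mark the mouse, per the labels, which call the samples matched. Across peaks, deviations from the group means correlated at 0.0057 on average between libraries of 1 mouse, over 45 pairs (-0.0819 to 0.0644), so that the number carried little of the spread. Replicate 1 was sequenced in lane 5, replicate 3 in lane 6, and replicate 2 in lane 5 without and in lane 6 with LPS. Counts cover peaks only, and with 3 libraries a group an exact permutation test could not go below p = 0.1, so single values are given with the fit across all peaks.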

Additional observations from a re-analysis of the deposited data

Results flagged for a closer look

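Differences in the LPS change between treated and untreated cells were flagged at 15 named peaks, because the interaction term of the fit across all peaks passed an FDR of 0.05 with a size above 0.5 on the log2 scale. For (+)-JQ1 the interaction was -1.06 at the Nlrc5 peak near the 3′ end and -0.77 at the Nlrc5 peak centred 13338 bases into the gene. It was -0.96 and -0.83 at the 2 distal peaks downstream of B2m, -0.65 at the H2-K1 start site, -0.65 at the strong H2-D1 peak and -0.64 at the start site of Tap1 and Psmb9. At other start sites it was -1.0 for Tap2, -1.0 for Tapbp, -0.62 for Psmb8 and -0.63 for Psmb10. With the replicate block the adjusted p was 0.0555, 0.0559 and 0.0563 at the start sites of Tap1 with Psmb9, Psmb8 and Psmb10, which were then not called. Other scalings ended more of these 11 calls, leaving 3 with total counts, 5 with promoter and distal peaks scaled separately and 2 with loess offsets. With loess offsets the interaction was -0.13 at H2-K1, -0.07 at H2-D1, -0.05 at Tap1 with Psmb9, -0.11 at Psmb8 and -0.11 at Psmb10. Without replicate 2, 0 of the 11 were called, and without replicate 1, 2 were.

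For IL-10 the interaction was -0.80 at the Nlrc5 peak centred 13338 bases into the gene, -0.89 and -1.28 at the 2 distal peaks downstream of B2m and -0.79 at the B2m start site. It was -1.09 at the H2-K1 start site, -0.70 at the peak over the 3′ part of H2-K1, -0.92 at the strong H2-D1 peak and -0.61 at the H2-D1 downstream peak centred at 6659 bases. At start sites it was -0.79 for Tap1 with Psmb9, -0.74 for Psmb8 and -1.16 for Tapbp, and it was -0.90 at the distal peak on the far side of Psmb9. Of these 12 calls 4 remained with loess offsets, 8 with total counts, 10 with separate scaling, 7 without replicate 1 and 2 without replicate 2. With loess offsets the interaction was -0.11 (adjusted p = 0.658) at the B2m start site, -0.14 (0.526) at Tap1 with Psmb9 and -0.17 (0.449) at Psmb8. All of these values rest on the unstimulated libraries, of which replicates 1 and 2 stood apart in their TMM factors. Groups of 3 libraries are too small for a test of single outlying libraries.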

How the results depend on the processing

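The rise with LPS (58 peaks) and the falls with (+)-JQ1 (28) and IL-10 (27) before LPS kept their direction in every setting tried, with 0 members called the other way. Without 1 replicate number the rise ranged from 55 to 59 peaks, the (+)-JQ1 fall from 20 to 26 and the IL-10 fall from 11 to 27. The shares of all peaks ranged from 8.05% to 13.1%, from 1.54% to 2.89% and from 2.31% to 3.27%. When the test asked for a change significantly above 0.5 (glmTreat), the rise had 51 peaks, the (+)-JQ1 fall 12 and the IL-10 fall 0. The shares of all peaks were then 4.97%, 0.768% and 1.04%. In the same test (+)-JQ1 alone had 1 peak higher and 0 lower (0.263% and 0.0489% of all peaks) and IL-10 alone 0 and 0 (0.171% and 0.0813%). The direct comparison of the treatments had 0 and 0 (0.376% and 1.04%), and the interactions had 1 and 3 lower (0.0438% and 0.38%). The replicate block gave 58, 28 and 28 peaks for the 3 main counts and 16 and 21 for the interactions, and of the named calls it ended only the 3 given above.

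(+)-JQ1 alone (11 higher, 3 lower) became 2 higher and 18 lower with total counts, 0 and 9 with loess offsets, 4 and 13 with separate tables and 2 and 0 with only unstimulated replicate 3, and the lower count was 5 with at least 10 counts in every library. Without 1 replicate number it ranged from 2 to 15 higher and from 1 to 5 lower. IL-10 alone (2 higher, 3 lower) had 4 higher with DESeq2 size factors, 0 with total counts, 0 with loess offsets, 1 with at least 10 counts, 1 with only the groups compared, 1 with a window of 2000 bases, 0 higher and 0 lower with only unstimulated replicate 3, and 0 to 9 higher and 1 to 2 lower without 1 replicate number. The direct comparison had 5 higher with loess offsets, and 3 to 10 higher and 2 to 4 lower without 1 replicate number. The (+)-JQ1 interaction (20 lower) had 7 with total counts, 5 with loess offsets, 11 with separate tables, 11 with only the groups compared, 7 with only unstimulated replicate 3 and 1 to 19 without 1 replicate number, and the IL-10 interaction (20 lower) had 13, 5 and 12 with total counts, loess offsets and only unstimulated replicate 3, and 2 to 22. The cause was not tested. The shares over all peaks, given above for several of these settings, moved as well. Total counts moved the median of all peaks in LPS against unstimulated to -0.26, and in (+)-JQ1 alone against unstimulated to -0.37. The sign of a named call turned with loess offsets for (+)-JQ1 alone at the start sites of B2m (-0.07) and of Tap1 with Psmb9 (-0.04).

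Changes under 0.5 on the log2 scale are not called by the rule used, and accessibility does not give expression, since RNA was not analysed here. Some peaks span several kilobases, so a change within one cannot be placed further.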
